A study of Homo sapiens with 6 samples.

Results

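OCI-AML2 is a human acute myeloid leukaemia cell line, and the data described here are the baseline transcriptome of its control cells. The members are the 2 libraries of cells given a non-targeting hairpin, out of 6 libraries in the study; the other 4 carry hairpins against TAZ and enter no comparison. The genes are ranked by the mean of the 2 control libraries, called control A and control B after their labels, over 13002 genes with a deposited value. The label calls the source an engineered leukemic stem cell line from blood. The hairpin is called Scramble shRNA in the labels while the deposited columns carry the name GFP. Both control populations carry the lentiviral hairpin vector and survived 3 days of puromycin (2.0 µg/mL), so these are not untouched parental cells. The labels do not state whether A and B are independent cultures, and with 2 libraries of 1 group there was no test; both values are given in place of a mean and an SD.

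Acute myeloid leukaemia cells are arrested on the way from a stem or progenitor cell to a mature granulocyte or monocyte, and their transcriptome usually mixes genes of both stages. Transcription factors such as PU.1 and C/EBPα set the myeloid programme, HOXA genes with MEIS1 and PBX3 mark a progenitor programme, and MYC supports growth. Growing leukaemia cells also depend on ribosome production, respiration, glycolysis and a supply of amino acids and lipids. Shortage of amino acids or stress on protein folding acts through the factor ATF4 (the integrated stress response), shortage of sterols through SREBP2, and shortage of oxygen through HIF factors.

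Levels are RPKM, reads scaled to gene length and to library size, which can be compared between genes. The listed genes held 18707504 reads in control A and 19909703 in control B, recovered from the steps of the deposited values. A mean of 1 RPKM or more was reached by 10596 of the 13002 genes (10590 in A alone and 10564 in B alone), 10 RPKM by 5454, 100 RPKM by 786 and 1000 RPKM by 88. For 1, 10 and 100 RPKM these are 81.5%, 41.9% and 6.05% of the listed genes, the shares beside which the counts of list members below are to be read. The median listed gene stood at 6.80 RPKM in A and 6.92 RPKM in B. A gene with no row was not analysed here and is not read as silent. EIF4A1 and EIF3C, which growing cells use in general, have no row, and neither has any of the 16 protein-coding genes of the end of the X chromosome that is shared with Y, among them the antigens IL3RA (CD123) and CD99 and the receptor chain CSF2RA.

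Most of the highest messages were those of protein synthesis. EEF1A1, the elongation factor that brings aminoacyl-tRNA to the ribosome, ranked first in both libraries at 10273 RPKM in A and 9282 RPKM in B. The ribosomal protein genes followed, with RPL7 at 8312 and 6804 RPKM and RPS18 at 7823 and 5770 RPKM in A and B. Of the 30 highest genes 23 code for a cytosolic ribosomal protein, and of the 100 highest 62 do. The others among the first 30 were EEF1A1, TMSB4X, PTMA, ACTB, SRGN, GAPDH and FTL. TMSB4X, which binds actin monomers, was at 7893 and 5056 RPKM. SRGN, the core protein of the proteoglycan that packs haematopoietic granules, was at 4632 and 3129 RPKM. FTL, the ferritin light chain that stores iron, was at 4111 and 2675 RPKM. The 100 highest genes took 43.74% of the summed RPKM (45.56% in A and 41.62% in B, over the same genes) and 27.88% and 24.29% of the reads, which are not divided by length. The first 100 genes of A and the first 100 of B shared 96 genes, and the first 1000 shared 920.

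**Figure D1:**
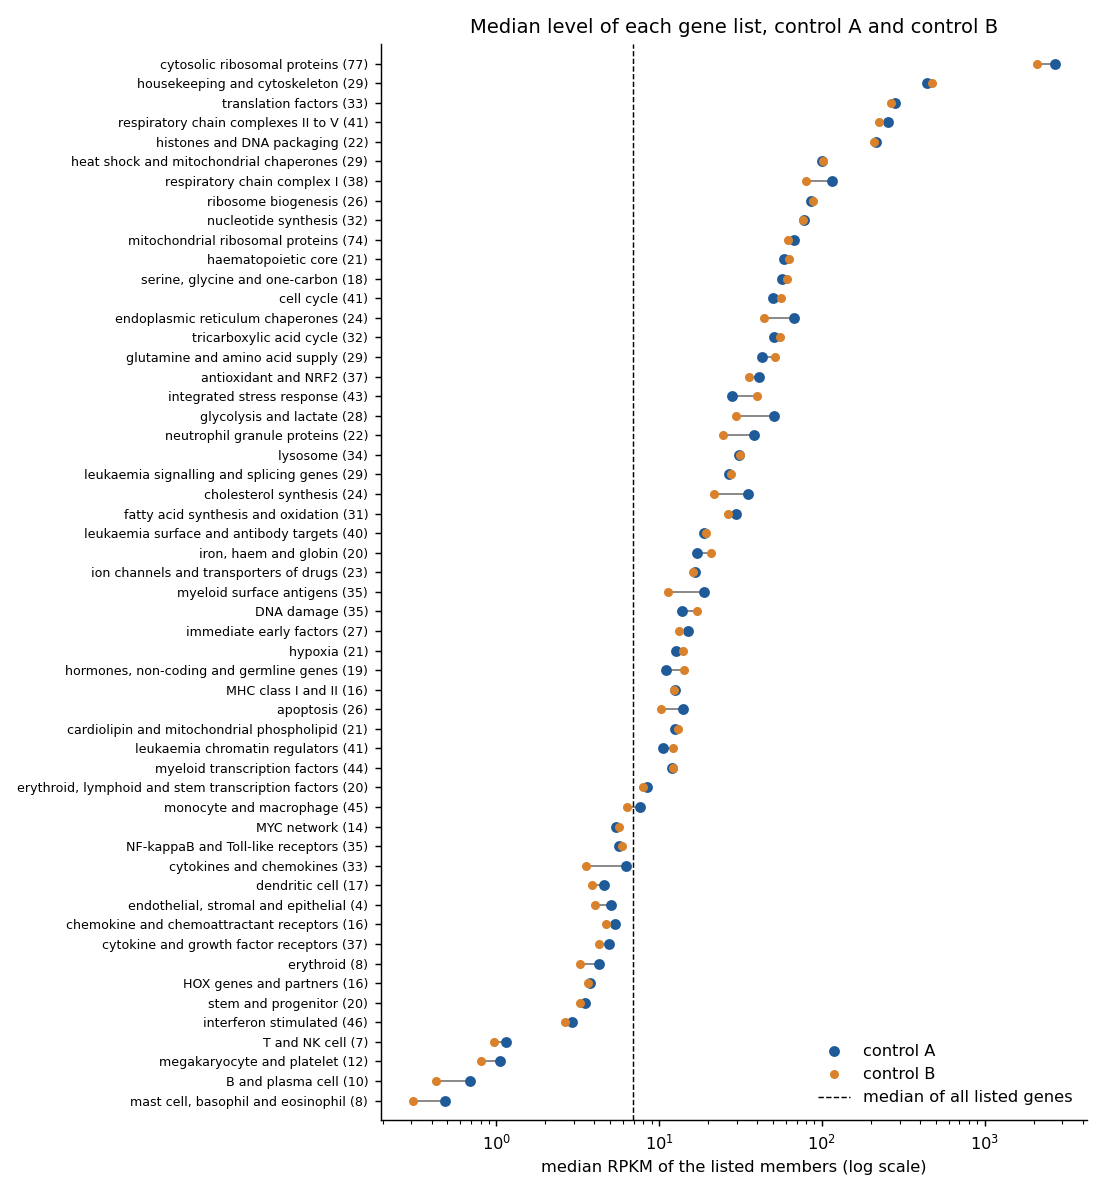
Median RPKM (log axis) of the listed members of each of 54 gene lists in control A (blue) and control B (orange), with the number of listed members in brackets; the dashed line is the median of all listed genes. The ribosomal protein list was highest, at medians of 2720 and 2090 RPKM, and the mast cell, B cell, megakaryocyte and T cell lists were lowest.

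The cells carried the general haematopoietic programme in full. All 21 genes of the haematopoietic core list were listed and at 1 RPKM or more, with a median of 58.5 RPKM in A and 62.4 RPKM in B; over all listed genes, 81.5% were at 1 RPKM or more. PTPRC (CD45), the phosphatase found on nearly all white cells, was at 58.5 RPKM in A and 62.4 RPKM in B. CORO1A, an actin-binding protein of leukocytes, was at 416 RPKM in both. ARHGDIB, a GTPase regulator of blood cells, was the highest of the list at 1734 and 1417 RPKM. ITGAL and ITGB2, the subunits of the integrin LFA-1, were at 102 and 115 RPKM and at 48.9 and 36.8 RPKM. The label's blood origin is thus met by its defining markers.

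Several genes of the primary (azurophil) granule, made at the promyelocyte stage, were abundant, while LTF, LCN2 and MMP8 of later granules were low. AZU1, the antimicrobial protein azurocidin, was at 874 RPKM in A and 623 RPKM in B. The serine proteases CTSG and PRTN3 were at 255 and 229 RPKM and at 234 and 164 RPKM. LYZ (lysozyme) was at 786 and 676 RPKM and the granule ribonuclease RNASE2 at 415 and 401 RPKM. ELANE (neutrophil elastase) was lower at 39.7 and 25.2 RPKM, and MPO, the enzyme most used to mark myeloid blasts, was at 11.2 and 10.1 RPKM, below all of these in both libraries. LTF and LCN2, proteins of the secondary granule, were at 0.861 and 0.456 RPKM and at 1.43 and 0.72 RPKM, and MMP8 at 0.549 and 0.42 RPKM. Of the 27 genes on this list 22 were listed, 19 reached 1 RPKM and 16 reached 10 RPKM. CEBPE, the factor of late granule genes, was at 37.8 RPKM in A and 21.1 RPKM in B.

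Monocyte genes were at mixed levels, with some abundant and others low. The alarmins S100A9 and S100A8 were at 1410 and 838 RPKM and at 831 and 429 RPKM, in both cases higher in A. CYBA and CYBB, which form the membrane part of the phagocyte NADPH oxidase, were at 390 and 266 RPKM and at 30.6 and 37.0 RPKM. TYROBP, an adaptor of activating receptors, was at 175 and 103 RPKM. FCGR1A (CD64), the high-affinity receptor for IgG, was at 56.4 and 53.2 RPKM. Against these, CD14, the lipopolysaccharide co-receptor of monocytes, was at 2.34 and 1.17 RPKM, ITGAM (CD11b) at 0.577 and 0.291 RPKM and ITGAX (CD11c) at 2.73 and 0.85 RPKM. FCGR3A (CD16) at 0.0484 and 0.0641 RPKM and the macrophage scavenger receptor CD163 at 0.0133 and 0.0235 RPKM were close to 0. In such bulk libraries, fewer cells of a type and less RNA per cell cannot be told apart. CSF1R, the receptor for the monocyte growth factor, was at 4.02 and 2.16 RPKM. In all 45 of the 49 monocyte and macrophage genes were listed and 31 reached 1 RPKM, while 81.5% of all listed genes did.

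Genes of the stem and progenitor list were at mixed levels, and their values do not settle the stem cell label. FLT3, the receptor tyrosine kinase of progenitors, was at 22.5 RPKM in A and 23.3 RPKM in B. CLEC12A (CLL-1), an antigen of leukaemic progenitors, was at 34.6 and 30.2 RPKM. CD38, which is low on the most primitive cells, was at 18.6 and 15.7 RPKM. KIT, the stem cell factor receptor, was near 0 at 0.0216 and 0.00953 RPKM, and HAVCR2 (TIM-3) was at 0.184 and 0.0609 RPKM. CD34, PROM1 (CD133) and THY1 (CD90), the classical stem cell antigens, were not among the genes analysed here. Of 38 stem and progenitor genes 20 were listed and 12 reached 1 RPKM, while 81.5% of all listed genes did. The median of the 20 was 3.50 and 3.25 RPKM, below the median of all listed genes.

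Markers of other lineages were few, and those present are mostly genes that myeloid cells also use. Of 37 T and NK cell genes 7 were listed; NKG7, a granule membrane protein, was at 42.6 and 27.8 RPKM, CD4, which monocytes also carry, at 9.13 and 8.49 RPKM, and NCAM1 (CD56), an antigen seen on some leukaemias, at 6.02 and 6.43 RPKM. CD3D was at 0.981 and 0.732 RPKM. Of 25 B and plasma cell genes 10 were listed, with XBP1, a factor of secretory cells in general, at 206 and 200 RPKM but PAX5 at 0.0376 and 0.0443 RPKM. Of 25 erythroid genes 8 were listed, led by CA2 (carbonic anhydrase) at 249 and 209 RPKM and TFRC, the transferrin receptor of all growing cells, at 129 and 103 RPKM; no globin gene was among them. PLEK, a platelet and leukocyte substrate of protein kinase C, was at 60.03 and 55.2 RPKM, while the platelet integrin genes ITGA2B and ITGB3 were at 0.101 and 0.104 RPKM and at 0.0685 and 0.111 RPKM. PRG2, the eosinophil major basic protein, stood out at 117 and 67.3 RPKM beside EPX, the eosinophil peroxidase, at 0.37 and 0.254 RPKM. Of 19 endothelial, stromal and epithelial genes 4 were listed, and only VIM (vimentin), which leukocytes express, was above 10 RPKM, at 253 and 159 RPKM.

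Among surface antigens, the targets of antibodies used or tried in acute myeloid leukaemia were mostly at middle levels. CD33, the sialic acid-binding receptor on most myeloid blasts, was at 19.7 RPKM in A and 19.9 RPKM in B. CD47, the signal that restrains phagocytosis, was at 20.6 and 21.7 RPKM, and CD70, the ligand of CD27, at 30.7 and 26.4 RPKM. CD44, the hyaluronan receptor, was at 69.9 and 59.9 RPKM and CXCR4, the receptor that holds cells in the marrow, at 72.9 and 55.7 RPKM. FUT4, which makes the CD15 glycan, was at 42.4 and 37.9 RPKM, and CD93 at 23.1 and 29.1 RPKM. CD276 (B7-H3) was at 9.43 and 8.47 RPKM. Of 50 such genes 40 were listed, 33 were at 1 RPKM or more and 2, CD74 and TFRC, at a mean of 100 RPKM or more. Of all listed genes, 81.5% and 6.05% were at these levels. Of the 33, FAS (CD95) at 3.41 and 9.06 RPKM was 2-fold higher in B, and CD52 at 5.76 and 1.86 RPKM and CD86 at 2.05 and 0.745 RPKM were 2-fold higher in A, where 0.359% and 1.11% of all genes were. The order FLT3, CD47, CD33, CD38 was the same in both libraries, but FLT3, CD47 and CD33 lay closer to each other than the SD of the difference between the libraries (0.344 on the log2 scale).

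Growth factor and chemokine receptors were lower. CSF3R, the G-CSF receptor, was at 23.6 RPKM in A and 22.8 RPKM in B, IL6R at 34.9 and 36.4 RPKM, and CSF2RB, the shared β chain for GM-CSF and IL-3, at 7.64 and 9.93 RPKM. CCR1 and CCR2, the receptors for monocyte chemokines, were at 29.7 and 22.4 RPKM and at 22.7 and 15.8 RPKM. The cells also made cytokine messages: MIF was at 1174 and 691 RPKM, the neutrophil attractant CXCL8 at 430 and 227 RPKM, CCL5 at 207 and 142 RPKM, TNF at 32.5 and 36.8 RPKM and IL1B at 12.5 and 10.2 RPKM.

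Among antigen presentation genes, B2M and HLA-B of class I were high, while HLA-DRA and CIITA of class II were low. Of the 16 listed genes of both classes 12 reached 1 RPKM. B2M, the class I light chain, was at 1030 RPKM in A and 928 RPKM in B and HLA-B at 700 and 526 RPKM. HLA-DRA was at 1.31 and 0.423 RPKM, and CIITA, the factor that switches class II genes on, at 0.084 and 0.0424 RPKM. CD74, the invariant chain that class II molecules need for loading, was at 131 and 124 RPKM in the same cells. HLA genes are near-identical copies in part, so their single values are uncertain.

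The transcription factors of the myeloid programme were among the more abundant factors. SPI1 (PU.1) was at 129 RPKM in A and 120 RPKM in B, CEBPA at 136 and 103 RPKM, IRF8, a factor of monocytes and dendritic cells, at 129 and 93.7 RPKM, and CEBPD at 89.7 and 89.3 RPKM. The order of SPI1, CEBPA and IRF8 differed between the libraries, so these 3 cannot be ranked. MYB, which keeps progenitors cycling, was at 80.3 and 93.8 RPKM, LMO2 at 63.6 and 59.7 RPKM and GFI1, a repressor needed for granulocytes, at 36.7 and 44.3 RPKM. RUNX1 was at 20.2 and 19.7 RPKM and its partner CBFB at 38.9 and 48.5 RPKM. KLF4, a factor of monocytes, was lower at 7.36 and 6.64 RPKM. Of 49 myeloid factors 44 were listed and 40 reached 1 RPKM, beside 81.5% of all listed genes.

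MYC was above all of these, at 203 RPKM in A and 240 RPKM in B, with its partner MAX at 36.0 and 34.6 RPKM. In the HOX group the A cluster was present at low to middle levels. HOXA10 was at 19.1 and 21.0 RPKM, HOXA5 at 7.22 and 7.44 RPKM, HOXA7 at 5.08 and 5.14 RPKM and HOXA9 at 2.58 and 3.45 RPKM. The cofactors were PBX3 at 34.9 and 43.8 RPKM and MEIS1 at 8.05 and 7.16 RPKM. The HOXB genes of the list, HOXB2 to HOXB9, were not among the genes analysed here. HOXA10 and PBX3 were thus several fold above HOXA9 in both libraries. Of the chromatin regulators mutated or targeted in this disease, DNMT1 was at 28.1 and 38.7 RPKM, KDM1A (LSD1) at 38.1 and 43.2 RPKM, EZH2 at 16.7 and 21.9 RPKM, MEN1 (menin) at 17.0 and 17.3 RPKM, DOT1L at 7.67 and 9.39 RPKM, KMT2A at 2.81 and 3.30 RPKM and TET2 at 2.22 and 2.05 RPKM. Of the 40 genes of this list at 1 RPKM or more, 34 were higher in B, as were 5473 of all 10596 genes. The median difference, B minus A, was 0.20 on the log2(RPKM + 0.5) scale. Once the length trend described below is taken out, 26 were higher in B and 14 in A, with a median of 0.09.

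**Figure D2:**
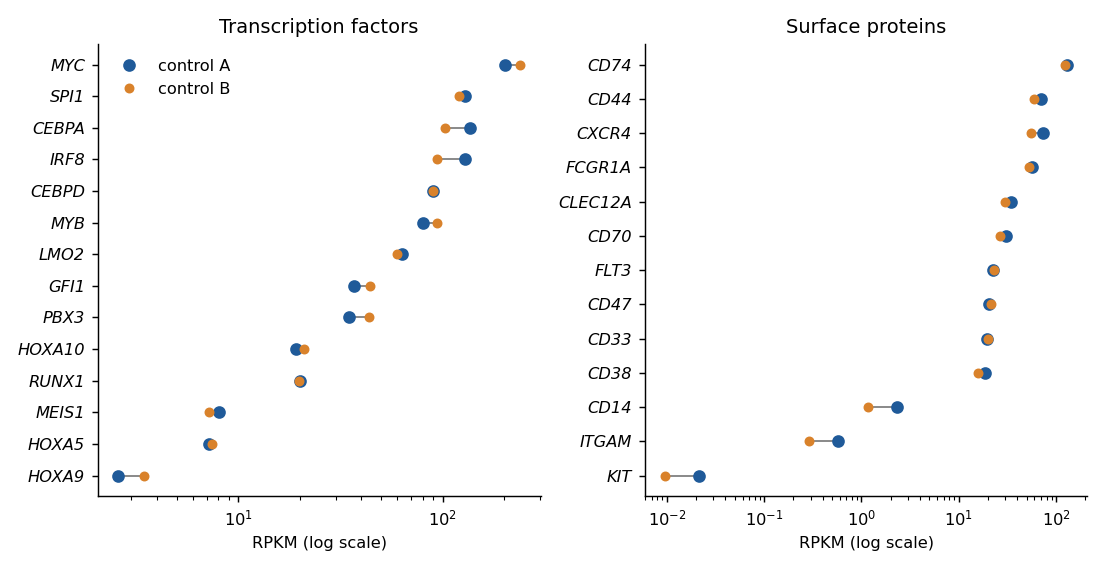
RPKM (log axes, with their own ranges) of 14 transcription factors (left) and 13 surface proteins (right) in control A (blue) and control B (orange), joined by a grey line. MYC at 203 and 240 RPKM leads the factors; KIT, ITGAM and CD14 lie below the other surface genes in both libraries.

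Ribosomal protein genes made up 33.1% of the summed RPKM in A and 29.7% in B. All 77 listed were at 10 RPKM or more and 76 at 100 RPKM or more. The machinery that builds ribosomes was likewise abundant: NPM1 (nucleophosmin), a nucleolar chaperone, was at 2491 and 2590 RPKM, NCL (nucleolin) at 664 and 764 RPKM and FBL (fibrillarin) at 433 and 384 RPKM. Near-identical processed copies exist for many ribosomal genes, so their single levels depend on how multiply mapping reads were treated, which is not given in the sources used here.

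Genes of mitochondrial respiration were uniformly expressed. All 38 listed genes of complex I and all 41 of complexes II to V were at 10 RPKM or more, against 41.9% of all listed genes, with medians of 116 and 80.4 RPKM and of 256 and 225 RPKM in A and B. Of these genes 36 and 39 were higher in A, where 5123 of all 10596 genes were. The median differences, B minus A on the log2 scale, were -0.31 and -0.32. With the length trend described below removed, both were -0.03. COX7C and COX4I1, subunits of cytochrome c oxidase, were at 1096 and 835 RPKM and at 718 and 554 RPKM. ATP5B, the catalytic β subunit of ATP synthase, was at 476 and 489 RPKM and NDUFS1, a core subunit of complex I, at 46.5 and 54.8 RPKM. In the tricarboxylic acid cycle CS (citrate synthase) was at 76.9 and 103 RPKM, MDH2 at 162 and 154 RPKM, IDH2 at 119 and 108 RPKM and OGDH at 9.21 and 10.0 RPKM, whereas PC (pyruvate carboxylase) was at 0.187 and 0.153 RPKM.

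TAZ (tafazzin), the cardiolipin transacylase targeted in the other arms of the study, was at 11.3 RPKM in A and 11.9 RPKM in B, rank 5047 and rank 4932, above the median listed gene. The rest of its pathway was of like level: CRLS1 (cardiolipin synthase) was at 22.3 and 20.6 RPKM, PTPMT1 at 12.5 and 11.5 RPKM and PGS1, which starts cardiolipin synthesis, at 7.44 and 6.99 RPKM. PISD, which makes phosphatidylethanolamine from phosphatidylserine in mitochondria, was at 12.2 and 13.1 RPKM. PTDSS1 and PTDSS2, the phosphatidylserine synthases, were at 122 and 148 RPKM and at 11.02 and 10.9 RPKM, so PTDSS1 was over 10 times its paralog in both libraries. All 21 listed genes of this list reached 1 RPKM and none differed by 2-fold between the libraries, as did 1.47% of all genes at 1 RPKM or more.

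Glycolytic enzymes were led by GAPDH at 3729 RPKM in A and 3210 RPKM in B, LDHA at 1067 and 622 RPKM, LDHB at 948 and 983 RPKM and ALDOA at 866 and 528 RPKM. PKM, the pyruvate kinase, was at 399 and 263 RPKM, HK2 at 22.8 and 19.3 RPKM and the glucose transporters SLC2A3 and SLC2A1 at 29.8 and 17.0 RPKM and at 11.7 and 7.75 RPKM. Nucleotide synthesis was led by IMPDH2, the rate-limiting enzyme of guanine nucleotides, at 349 and 329 RPKM and TYMS (thymidylate synthase) at 298 and 292 RPKM; DHODH, the pyrimidine enzyme of the inner mitochondrial membrane, was at 11.5 and 12.5 RPKM. All 32 listed nucleotide genes reached 1 RPKM and their median difference between the libraries was -0.03. The drug genes of this disease were also close in both libraries. DCK, the kinase that activates cytarabine, was at 40.6 and 46.0 RPKM, its importer SLC29A1 at 61.8 and 58.5 RPKM and SAMHD1, which degrades the active drug, at 10.8 and 13.1 RPKM; the efflux pumps ABCB1 and ABCG2 were not among the genes analysed here.

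Cell cycle genes were expressed throughout: 39 of 41 listed reached 1 RPKM, beside 81.5% of all listed genes. PCNA was at 426 and 439 RPKM, CDK1 at 95.8 and 88.6 RPKM and MKI67 at 22.6 RPKM in both. Of the D cyclins CCND3 was at 117 and 125 RPKM and CCND2 at 0.0686 and 0.0529 RPKM. Of the list, 19 genes were higher in B and 20 in A. Among apoptosis genes BAX was at 158 and 163 RPKM, MCL1 at 63.4 and 69.2 RPKM, BCL2, the target of venetoclax, at 20.8 and 26.0 RPKM and BCL2L1 at 6.31 and 7.46 RPKM. BCL2A1 was the member that differed most of those named, at 48.2 RPKM in A and 25.3 RPKM in B. CDKN1A (p21), a cell cycle inhibitor, was at 87.4 and 70.9 RPKM and MDM2 at 27.0 and 37.6 RPKM.

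Interferon stimulated genes were low. Of 46 interferon stimulated genes, all listed, 34 reached 1 RPKM but only 10 reached 10 RPKM, beside 81.5% and 41.9% of all listed genes. Their median was 2.93 RPKM in A and 2.63 RPKM in B. MX1 was at 0.75 and 0.748 RPKM, IFIT1 at 1.09 and 0.534 RPKM and ISG15 at 11.1 and 6.15 RPKM. Of the Toll-like receptors TLR2 was at 14.3 and 17.2 RPKM and TLR4 at 0.948 and 0.956 RPKM. Antioxidant genes were higher, with 31 of 37 listed members at 10 RPKM or more, although HMOX1 (haem oxygenase 1) was at 0.949 and 0.248 RPKM beside GPX1 (glutathione peroxidase) at 671 and 473 RPKM and PRDX1 at 422 and 352 RPKM. Constitutive heat shock genes were high, with HSP90AB1 at 1726 and 1773 RPKM and HSPA8 at 1253 and 797 RPKM, while the inducible HSPA1B was at 3.41 and 0.723 RPKM. That gene has a near-identical neighbour, HSPA1A, which was not analysed here.

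The libraries agreed closely over genes as a whole. Over the 10596 genes at a mean of 1 RPKM or more, the log2(RPKM + 0.5) values of A and B had a Pearson correlation of 0.985 and a Spearman correlation of 0.983 across genes, a description, since genes are not independent replicates. The median difference, B minus A, was 0.01 and its SD 0.344, where counting error alone would give an SD of 0.147. A difference of at least 2-fold on this scale was found for 156 genes (1.47%), 38 higher in B (0.359%) and 118 higher in A (1.11%). On recovered reads scaled to each library's total the same count was 63 higher in B and 92 higher in A, and with the length trend taken out 55 and 83, so the split between directions depends on the scale. The ratio of B to A lay outside its 95% counting interval for 5961 genes (56.3%). The intervals cover counting error only. Within narrow ranges of level the Pearson correlation was lower, at 0.518 for genes at 1 to 3 RPKM and 0.785 at 10 to 30 RPKM.

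Part of the difference went with gene length. From the shortest to the longest quintile of the genes the median difference was -0.24, -0.07, 0.02, 0.10 and 0.17, or 0.13 for each doubling of length. The most abundant genes, which are short, were higher in A: 93 of the 100 highest and 589 of the 786 at 100 RPKM or more, with a median difference of -0.20 for the latter. All 77 ribosomal protein genes were higher in A, by a median difference of -0.38 and a range of -0.64 to -0.14, and none by 2-fold. With the length trend removed their median was -0.05, with 23 higher in B and 54 in A, and after quantile normalization -0.03. The 4 ribosomal protein genes longer than the median gene were also higher in A, at a median of -0.45.

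**Figure D3:**
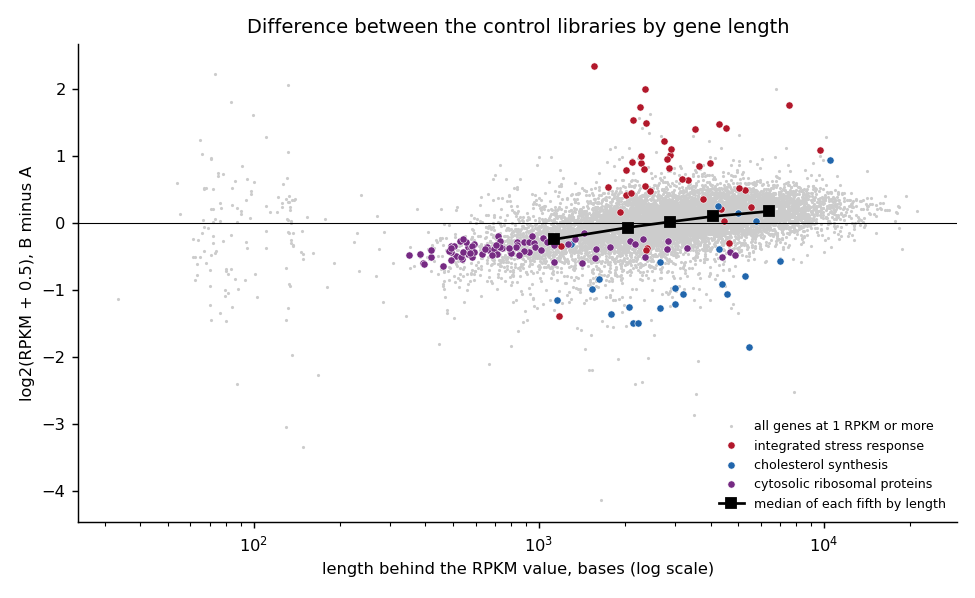
Difference in log2(RPKM + 0.5), B minus A, against the gene length behind the RPKM value (log axis) for genes at 1 RPKM or more (grey), with the integrated stress response (red), cholesterol synthesis (blue) and ribosomal protein (purple) genes; black squares are the medians of the quintiles by length, from -0.24 to 0.17. Ribosomal genes lie below 0 with the short genes, stress response genes mostly above 0 and cholesterol genes mostly below 0 at all lengths.

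Beyond that trend, the control libraries stood apart in a few gene lists, and most genes of the integrated stress response were higher in B. Of the 41 integrated stress response genes at 1 RPKM or more, 36 were higher in B and 13 of them by 2-fold or more. That is 31.7% of the list beside 0.359% of all genes. The gene lists were chosen with earlier results of these data known, so such shares, here and below, are descriptions. The median difference was 0.81, and 0.80 with the length trend removed. ATF4 itself, the factor of this response, was high in both libraries at 451 RPKM in A and 602 RPKM in B. CHAC1, which degrades glutathione, was at 2.15 RPKM in A and 13.0 RPKM in B, from 60 and 410 reads, the largest difference towards B of any gene at 5 RPKM or more. ASNS (asparagine synthetase) was at 31.6 RPKM in A and 128 RPKM in B, a difference of 2.00. PSAT1, which makes phosphoserine on the way to serine, was at 78.2 and 261 RPKM, and PHGDH, the enzyme before it, at 106 and 183 RPKM. The mitochondrial folate enzymes ALDH1L2 and MTHFD2 were at 3.89 and 14.4 RPKM and at 127 and 254 RPKM. SESN2, a sensor that restrains mTORC1, was at 8.21 and 22.5 RPKM and PCK2, the mitochondrial PEP carboxykinase, at 28.5 and 80.7 RPKM.

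Genes of amino acid supply were also higher in B. SLC7A5 and SLC3A2, the chains of the leucine transporter LAT1, were at 61.2 and 164 RPKM and at 80.5 and 141 RPKM in A and B. SLC7A11, the cystine importer, was at 14.9 and 32.3 RPKM and ASS1 (argininosuccinate synthase) at 54.6 and 121 RPKM. Of the 28 amino acid supply genes at 1 RPKM or more, 23 were higher in B and 6 by 2-fold or more; of the 16 serine and one-carbon genes 12 and 2 were. Of all 10596 genes 5473 were higher in B, 0.359% by 2-fold or more. The median differences of these lists were 0.48 and 0.35, and 0.38 and 0.23 with the length trend removed. These lists share members: of the 13 stress response genes 2-fold higher in B, 5 are also in one of the other lists. Of the 38 genes 2-fold higher in B, 16 belong to at least one of these lists. The share of all 10596 genes that do was not computed, so this is a count only. The charging enzymes GARS, MARS and WARS, which load tRNA with glycine, methionine and tryptophan, were at 94.7 and 221 RPKM, at 41.5 and 89.3 RPKM and at 49.6 and 101 RPKM.

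Not all members of the stress response were higher in B. DDIT3 (CHOP), the factor of prolonged stress, was the only list member 2-fold higher in A, at 17.8 RPKM in A and 6.53 RPKM in B. PPP1R15A (GADD34), which reverses the block on translation, was at 41.4 and 31.1 RPKM and ATF3 at 13.6 and 10.4 RPKM. TRIB3, an inhibitor of AKT, was higher in B, at 89.97 RPKM in A and 125 RPKM in B. Chaperones of the endoplasmic reticulum were on the other side: of 23 genes at 1 RPKM or more 18 were higher in A, 3 by 2-fold or more (13.0% of the list, against 1.11% of all genes). HSPA5 (BiP), the main chaperone of that compartment, was at 326 RPKM in A and 148 RPKM in B, and MANF at 194 and 82.0 RPKM. XBP1 was at 206 and 200 RPKM. With the length trend removed 1 gene of the list was past 2-fold in that direction.

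ATF4 is known to bind a composite C/EBP and ATF element, written here as TGATGNAA. These letters were searched on both strands, after the values had been seen, in promoter windows of 300 bases that lie mostly before each annotated start (RefSeq, GRCh38.p14). They were present in 13 of 54 windows of 36 genes of the list (24.1%), beside 1.9% of the 12337 windows of all genes at 1 RPKM or more, for which 80.8% of the genes had a window. A match is a description and not a shown binding site. The list was made of genes of the response that ATF4 drives, and the share does not use the difference between A and B. It is therefore no result about these libraries. Among the 13 genes with a match are CHAC1, ASNS, GARS and MARS, 2-fold or more higher in B, and also ATF3, at 13.6 and 10.4 RPKM, and HERPUD1, at 28.1 and 31.5 RPKM. PSAT1, PCK2, CTH, SESN2 and SLC7A5, also 2-fold or more higher in B, had a window but no match. The windows of 3 genes 2-fold higher in B are shown because this response held the largest differences towards B; capitals mark the match, in either orientation. They are ASNS at chr7:97872427-97872516 on the minus strand, CHAC1 at chr15:40953222-40953311 on the plus strand and GARS at chr7:30594788-30594877 on the plus strand.
ASNS: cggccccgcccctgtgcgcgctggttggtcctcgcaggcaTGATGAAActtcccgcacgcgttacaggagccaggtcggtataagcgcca
CHAC1: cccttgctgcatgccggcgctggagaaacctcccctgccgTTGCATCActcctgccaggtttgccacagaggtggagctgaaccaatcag
GARS: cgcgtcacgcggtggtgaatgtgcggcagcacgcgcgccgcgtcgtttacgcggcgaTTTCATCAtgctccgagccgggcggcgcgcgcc

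Cholesterol synthesis was higher in A. Of 23 genes at 1 RPKM or more 19 were higher in A and 10 of them by 2-fold or more (43.5% of the list, against 1.11% of all genes), with a median difference of -0.97, and -0.94 with the length trend removed. HMGCS1, which makes HMG-CoA, was at 56.3 RPKM in A and 15.3 RPKM in B. IDI1, which isomerises the isoprenoid unit, was at 172 and 60.8 RPKM, FDPS at 284 and 143 RPKM and SQLE at 80.7 and 41.1 RPKM. INSIG1, the sterol-regulated brake of the pathway, was at 204 and 87.6 RPKM. The regulator SREBF2 itself was nearly equal at 28.9 and 29.6 RPKM. ABCA1, which exports cholesterol, was on the opposite side at 0.92 RPKM in A and 2.23 RPKM in B. Fatty acid genes took a smaller part, with a median difference of -0.07 and no member 2-fold apart, although the desaturase genes FADS1 and FADS2 were at 53.8 and 32.8 RPKM and at 74.8 and 46.8 RPKM.

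Genes induced by low oxygen were mostly higher in A as well. Of 19 hypoxia genes at 1 RPKM or more 15 were higher in A and 6 by 2-fold or more (31.6% of the list, against 1.11% of all genes), with a median difference of -0.56, although the median level of all 21 listed members was 12.7 RPKM in A and 14.0 RPKM in B, the opposite order. BNIP3, a mitophagy receptor, was at 104 RPKM in A and 22.3 RPKM in B, its relative BNIP3L at 58.3 and 26.1 RPKM and NDRG1 at 72.8 and 36.8 RPKM. PFKFB4, which controls glycolytic flux, was at 10.2 and 0.961 RPKM. ALDOC, a brain-type aldolase, showed the largest difference of any gene at 5 RPKM or more, at 54.5 RPKM in A and 2.63 RPKM in B, from 1609 and 88 reads. SLC16A3, the lactate exporter, was at 85.8 and 39.8 RPKM. VEGFA, a classical target of the same factors, went the other way at 12.4 and 22.1 RPKM, and HIF1A was nearly equal at 12.5 and 12.7 RPKM. In glycolysis 21 of 26 genes were higher in A, 3 by 2-fold or more, with a median difference of -0.48. Of all 10596 genes 5123 were higher in A, 1.11% by 2-fold or more.

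Fewer than 80% of the hypoxia genes had a promoter window (15 of 19), so no share of a motif over that list is read. The windows of 3 of its members are shown for the core letters ACGTG of the hypoxia response element. The letters were searched on both strands after the values had been seen, and 26.4% of the windows of all genes at 1 RPKM or more hold them. The 3 members were picked among those with a match and are all 2-fold or more higher in A. AK4, EGLN1, ERO1L, INSIG2, MXI1 and PDK1 also hold the letters and are not shown. The windows shown are BNIP3 at chr10:131982008-131982097 and P4HA1 at chr10:73096903-73096992, both on the minus strand, and ANKRD37 at chr4:185396639-185396728 on the plus strand. P4HA1, a subunit of the enzyme that hydroxylates collagen proline, was at 37.5 RPKM in A and 17.2 RPKM in B, and ANKRD37 at 3.29 and 1.32 RPKM.
BNIP3: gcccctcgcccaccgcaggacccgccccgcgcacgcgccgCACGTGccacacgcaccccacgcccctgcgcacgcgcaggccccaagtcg
P4HA1: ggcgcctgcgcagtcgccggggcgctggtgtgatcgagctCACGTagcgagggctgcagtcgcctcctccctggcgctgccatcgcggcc
ANKRD37: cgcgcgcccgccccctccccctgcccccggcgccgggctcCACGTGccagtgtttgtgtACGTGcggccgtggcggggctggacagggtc

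**Figure D4:**
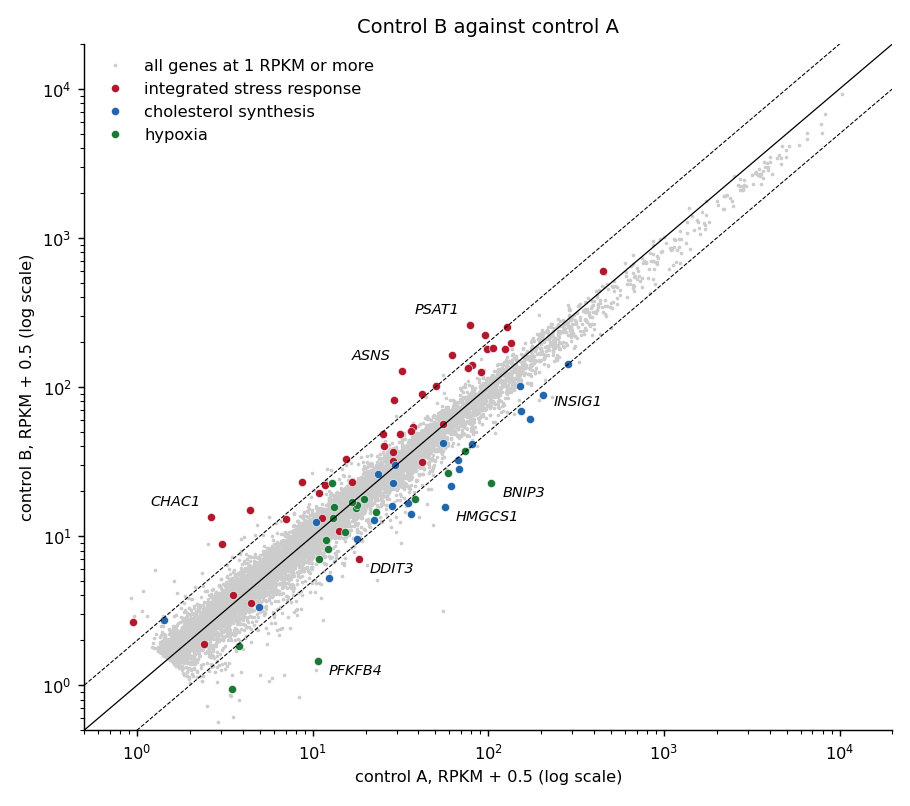
RPKM + 0.5 in control B against control A (log axes) for genes at 1 RPKM or more (grey), with integrated stress response (red), cholesterol synthesis (blue) and hypoxia (green) genes; the solid line is equality and the dashed lines 2-fold. Red genes such as CHAC1, ASNS and PSAT1 lie above the upper dashed line, and BNIP3, PFKFB4, HMGCS1, INSIG1 and the red gene DDIT3 below the lower one.

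Other genes with large differences included inflammatory and myeloid genes that were higher in A. CCL3, a macrophage chemokine, was at 31.2 RPKM in A and 8.43 RPKM in B and its neighbour CCL4 at 4.53 and 0.666 RPKM; 5 of 25 cytokine genes at 1 RPKM or more were 2-fold higher in A, as were 1.11% of all genes. CD300A, an inhibitory receptor of myeloid cells, was at 47.8 and 11.3 RPKM, ARG1 (arginase) at 22.8 and 4.58 RPKM and the immediate early factor JUN at 44.4 and 15.9 RPKM. The monocyte list was higher in A for 28 of its 31 genes at 1 RPKM or more and the granule list for 18 of 19, with medians of -0.46 and -0.51 that became -0.32 and -0.26 with the length trend removed. Myeloid transcription factors were split evenly, 20 higher in each library. Towards B, FAS, a death receptor, was at 3.41 RPKM in A and 9.06 RPKM in B, and 27 of the 35 genes of the DNA damage list were higher in B, with a median difference of 0.29; with the length trend removed 25 were, with a median of 0.19. Of all 10596 genes 5473 were higher in B. TUBE1, ε-tubulin, was at 9.39 and 25.9 RPKM. MIR4263, at 2.02 and 8.32 RPKM, and RNU4ATAC, at 9.89 and 0.759 RPKM, rest on 3 and 14 reads and on 23 and 2 reads. Of the genes 2-fold apart, 17 of the 38 higher in B and 42 of the 118 higher in A belong to a list. How many of all 10596 genes belong to a list was not counted, so these counts do not show a concentration in the lists.

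Gene length and promoter letters were set beside the level. From the highest to the lowest quintile of the genes by mean RPKM the median length was 1814, 2689, 3241, 3701 and 3413.5 bases, where the length is the one the deposited values imply. The GC content of the promoter windows was level, at medians between 64.3% and 65.3%. The letters CTTCCG, the core of a site bound by ETS factors, were present in 40.2%, 35.2%, 33.4% and 29.7% of the windows of the 4 highest quintiles; the lowest quintile had windows for 76.5% of its genes and is not read. The letters TATAAA, searched like CTTCCG on both strands, were in 6.58%, 5.61%, 5.64% and 5.37%, and CCAAT in 37.4%, 34.8%, 34.3% and 35.7%. Other letters were also less common at lower levels, ACGTG at 30.7%, 28.6%, 25% and 24.9% and GGGCGG, the core of the Sp1 site, at 69.3%, 69.1%, 68.4% and 65.5%. The run CTTTC at the start was in 5.88%, 4.34%, 4.06% and 3.43%. Of the 77 windows of the 62 ribosomal protein genes that had one, 58.4% held CTTCCG beside 32.6% of all windows, and 44.2% held the run CTTTC within 10 bases before to 20 bases after the start on the gene's own strand, beside 4.32%. Translation of these messages is known to follow growth signals through a pyrimidine run at their 5′ end. The letters were counted anywhere in the stretch searched, so 44.2% is not the share with that motif.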

How the data were processed

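The deposited values are RPKM per gene, per the file headers, in 2 tables with identical control columns. Per the submitters' processing notes the build was hg19 and the tools included DESeq 1.18.0, edgeR 3.8.6, TopHat2 2.0.11, Trim Galore 0.4.0 and HTSeq 0.6.1p2. What each did, the gene filter and the strand setting are not given in the sources used, so overlapping antisense genes cannot be told apart, and near-identical copies are uncertain. RNA was column-purified and the library kit was directional, per the labels' protocols.

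Columns were read with pandas 2.3.3. Of 13004 rows 2 were exact repeats (CSNK1E and SFPQ) and were dropped, and 21 symbols turned into dates were renamed through their gene ID. Whole reads and gene lengths were recovered from the steps of the values for 12999 genes (99.977%, within 0.02 of a whole read), and the steps were tested on simulated data. The library size that the values imply is 17891370 reads in A and 20274263 in B, which is not the sum of the listed reads. Reads were used for counting error and 1 alternative; no count test was run. Differences are log2(RPKM + 0.5), B minus A, over genes at a mean of 1 RPKM or more. The length trend was removed with lowess over log2 length (fraction 0.3), which was added for the counts of differing genes after seeing the data. The 54 gene lists and the members were chosen with earlier results of these data known. Named genes are the 30 highest, each list's key members and its 4 highest, and the 10 with the largest difference in each direction at a mean of 5 RPKM or more; ABCA1, ANKRD37, CD86, FAS, GARS, HERPUD1, MANF, MARS and WARS were named after their values were seen. RefSeq promoter windows (GRCh38.p14) were matched by gene ID. Alternatives were the pseudocount, the filter, other scalings and each library alone. Some list members are not reported here.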

Additional observations from a re-analysis of the deposited data

How the results depend on the processing

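The number of genes at 1 RPKM or more was 10596 as reported, and 10564 and 10590 from control B or control A alone. The share of the 100 highest genes was 41.69% and 45.61% with each library's own ranking. The SD of the difference ranged from 0.309 with the length trend removed to 0.38 with a pseudocount of 0.1. The 156 genes apart by 2-fold were 92 with a minimum of 5 RPKM, which tests fewer genes, and between 127 and 217 under the other alternatives. Among the 50 lists with at least 5 genes at 1 RPKM, quantile normalization turned the median difference of the housekeeping and cytoskeleton list from -0.26 to 0.01 and brought that of the ribosomal proteins from -0.38 to -0.03; the cause was not tested. The other list medians moved by less than the SD over genes and kept their direction where it was 0.25 or more. No paired analysis was possible because the result comes from no test and only 1 group is used. Leaving out a library gives no value for the differences. With 2 libraries the spread is known only from a single difference, and genes at few reads, such as small RNAs, are limited by counting error.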
